A study of Mus musculus with 4 samples.

Results

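The 10 genes described here encode elastin, the microfibril proteins around it and the fibulins that join both: Eln, Fbn1, Fbln1, Fbln2, Fbln5, Efemp1, Efemp2, Mfap4, Mfap5 and Emilin1. They were taken by symbol from the 32285 genes listed in the data, and each symbol matched 1 row. Single-cell RNA sequencing had been made of intervertebral discs of the mouse tail, in 2 control and 2 injured libraries, 1 of each per round. All animals were female C57BL/6 wildtype mice of 12 weeks, and injured discs (tail levels CC5/6 to CC9/10) had been punctured on both sides with a 30G needle and collected after 7 days. Unpunctured control discs were taken lower on the same tails, at levels CC12/13 to CC16/17. Injury and tail level therefore cannot be told apart. Discs of 6 mice, 30 per group, were pooled, and the labels do not say whether these numbers hold for each round or for both. Each library is a pool and not an animal, and p-values measure only the spread between these pools. Cells had been frozen, thawed and sorted for viability before capture.

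Elastic fibres let a tissue stretch and recoil. They form when tropoelastin, the product of Eln, is laid onto a scaffold of fibrillin microfibrils, cross-linked there by lysyl oxidases, and held in place by short fibulins that bind both partners. In the disc, such fibres run within and between the lamellae of the annulus fibrosus, the layered ring whose inner part is cartilage-like and whose outer part is rich in fibroblasts. Microfibrils also occur without elastin and hold latent growth factors of the TGF-beta family in the matrix.

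The 4 libraries held between 378 and 1834 cells, defined as barcodes with at least 250 detected genes. Total counts of unique molecular identifiers (UMIs, 1 per captured transcript) ran from 1114210 to 16972879 per library. Control cells were shallow, with medians of 1061.5 UMIs in round 1 and 836 in round 2, against 7033.5 and 4635 for injured cells. Control round 1 stood apart: 147 of its barcodes with at least 502 UMIs passed that number in the injured library of its round as well. Of its 378 cells, 219 remained once barcodes with at least 0.3 times their UMIs in injured round 1 were left out, and some values are also given without them. Levels are in CPM, the UMIs of a gene per 1000000 UMIs of the cells summed, with 95% intervals that cover counting error only. UMIs count transcripts near their 3′ end and were not divided by length.

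Over all cells, Efemp1 and Fbln1 were low in both injured libraries, and the microfibril genes Fbn1 and Mfap5 and the fibulin gene Fbln2 were high in injured round 2. None of the 10 genes passed the test with injury only (edgeR quasi-likelihood on library sums, Benjamini-Hochberg adjusted p under 0.05), in which 10 of 11987 genes, 0.0834%, were called. At an unadjusted p under 0.05 there were 4 of the 10, against 7.89% of all genes, and DESeq2 called 2, Efemp1 and Fbln1, against 1.5%. Rounds pair control and injured discs of the same animals, and with round as a block 5 of the 10 genes were called against 6.7% of all genes tested. The 5 were Efemp1, Fbln1, Fbln5 and Mfap4, which fell, and Fbn1, which rose. Without the shared barcodes of control round 1, Efemp1, Fbln1 and Fbn1 were called in the blocked fit, against 2.08% of all genes, Fbln5 was not (adjusted p 0.103) and Mfap4 did not pass the filter on low counts. With 1 library left out and injury only, edgeR called 0.934% to 2.4% of all genes, and calls of that kind given below are to be read against these shares. In this fit 1 residual degree of freedom is left and the spread is shared over genes. In sums over all cells, fewer cells of a type and less RNA per cell cannot be told apart. Marker sums moved with injury over all cells as well. Macrophage markers (98.7 and 247 CPM in controls, 414 and 460 CPM after injury), mural markers (211 and 297 against 343 and 423), outer annulus markers (12196 and 13508 against 21603 and 31315) and inner annulus markers (18716.5 and 13240 against 19717 and 18842) were higher in both injured libraries. Nucleus pulposus markers (1929 and 1463 against 777 and 483), B or plasma cell markers (1228 and 723 against 106 and 3.41) and pancreatic acinar markers (1407 and 995 against 21.3 and 3.22) were lower in both. Of any of these 7 lists at most 3 markers were at 0 in a library, and their part in the changes was not tested. The median log2 change of the 10 genes was -0.28 in the fit with injury only, beside -0.01 for all genes tested.

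Eln, the gene of the elastic core protein (ENSMUSG00000029675, chromosome 5, 134702593 to 134747323, minus strand, GRCm38 in the GENCODE annotation), was sparsely captured, with 186 UMIs in all cells. Its level was 12.2 and 13.9 CPM in control rounds 1 and 2, and 7.14 and 9.0 CPM in injured rounds 1 and 2. Both injured libraries lay below both controls, at 0.584 times the control in round 1 (95% interval 0.311 to 1.18) and 0.648 times in round 2 (0.426 to 1.01). The log2 change was -0.62 with a standard error (SE) of 0.45 and an adjusted p of 0.842. With 4 clusters left out, in which over 50% of the control round 1 barcodes recurred in injured round 1 at 0.3 to 3 times the UMIs, the change was -0.07, and the groups overlapped.

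Fbn1 encodes fibrillin-1, the backbone of microfibrils (ENSMUSG00000027204, chromosome 2, 125300594 to 125507993, minus strand). It stood at 47.9 and 92.5 CPM in control rounds 1 and 2 and at 63.5 and 307 CPM in injured rounds 1 and 2. Injured round 2 was far above the other 3 libraries, while injured round 1 lay between the controls. Within rounds the injured level was 1.32 times the control (0.989 to 1.81) and 3.32 times (2.88 to 3.85). The log2 change was 1.49 (SE 0.73, adjusted p 0.703). With round as a block it was 1.21 with an adjusted p of 0.0392. Without its shared barcodes, control round 1 stood at 27.5 CPM. The log2 change was -0.12 without injured round 2, and 2.24 with an adjusted p of 0.0282 without injured round 1.

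Mfap5, which codes for a small glycoprotein bound to fibrillin (ENSMUSG00000030116, chromosome 6, 122505845 to 122529290, plus strand), followed the same order among the injured libraries. Its levels were 34.8 and 65.2 CPM in the controls and 18.7 and 153 CPM in the injured libraries of rounds 1 and 2. The rounds went opposite ways beyond counting error, at 0.539 times (0.371 to 0.80) and 2.35 times (1.97 to 2.81). In the fit the log2 change was 0.87 (SE 0.87, adjusted p 0.887). Leaving out injured round 2 turned it to -1.39. Without its shared barcodes, control round 1 stood at 16.9 CPM, below injured round 1. With the 4 clusters of shared barcodes left out, the log2 change was 3.25 (SE 1.14, adjusted p 0.578), and with round as a block as well it was 2.898 and called (0.00509), against 7.98% of all genes.

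Mfap4, another microfibril-associated gene (ENSMUSG00000042436, chromosome 11, 61485431 to 61488900, plus strand), had only 19 UMIs. It stood at 3.76 and 4.63 CPM in the controls, at 0 in injured round 1, where 3 counts would be 0.446 CPM, and at 0.474 CPM in injured round 2. The blocked fit called it lower (adjusted p 0.0283). Of its UMIs, 2 in control round 1 and 7 in control round 2 lay in the 4 clusters of shared barcodes. Without those clusters the means were 1.74 ± 0.320 CPM in controls and 0.237 ± 0.335 CPM after injury (SD, n = 2 each). Barcodes with under 100 UMIs, which hold free RNA, read 6.38 CPM in control round 2 and 6.51 and 1.36 CPM in injured rounds 1 and 2, above the cells of the same library in each case.

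Emilin1 codes for a glycoprotein at the boundary of elastin and microfibrils (ENSMUSG00000029163, chromosome 5, 30913402 to 30921277, plus strand). Its 2 controls differed most, at 251 CPM in round 1 and 80.5 in round 2, while the injured libraries read 160 and 174 CPM. The injured level was thus 0.639 times the control in round 1 (0.558 to 0.733) and 2.16 times in round 2 (1.84 to 2.53). The log2 change was 0.07 (SE 0.54, adjusted p 0.991).

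Among the short fibulins, Fbln5 tethers elastin to microfibrils and cells (ENSMUSG00000021186, chromosome 12, 101746565 to 101819055, minus strand). It was at 16.0 and 17.1 CPM in the controls and at 3.42 and 7.20 CPM after injury, with no overlap between the groups. Controls exceeded injured libraries 4.67 times (2.34 to 9.14) in round 1 and 2.38 times (1.56 to 3.57) in round 2. The change of -1.54 on the log2 scale (SE 0.53) had an adjusted p of 0.517, and 0.0305 with round as a block. Efemp2 encodes fibulin-4, needed for elastin cross-linking (ENSMUSG00000024909, chromosome 19, 5473954 to 5482517, plus strand). Its levels were 40.4 and 62.9 CPM in the controls and 56.0 and 99.3 CPM in the injured libraries. Injured cells held 1.39 times (1.01 to 1.95) and 1.58 times (1.32 to 1.90) the control level within rounds, and the log2 change was 0.66 (SE 0.44, adjusted p 0.818).

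Efemp1, ENSMUSG00000020467, encodes fibulin-3 (chromosome 11, 28853204 to 28926743, plus strand), and of the 10 genes it had the smallest p over all cells. It fell in the blocked fit by 3.58 on the log2 scale. Control rounds 1 and 2 held 57.3 and 78.2 CPM, and injured rounds 1 and 2 held 3.72 and 7.10 CPM. The control level was 15.4 times the injured one in round 1 (9.54 to 25.6) and 11.01 times in round 2 (8.34 to 14.6). With injury only, the log2 change was -3.55 (SE 0.47), with an adjusted p of 0.0589. It was 1.39e-06 in the blocked fit, and below the threshold with any 1 of the 4 libraries left out, at 1e-07 to 0.00632. A fit that blocked on round and left out the shared barcodes gave 0.00313.

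Fbln1 (ENSMUSG00000006369) codes for fibulin-1, a long fibulin found in elastic fibres and basement membranes (chromosome 15, 85205949 to 85286535, plus strand). Its levels were 165 and 178 CPM in control rounds 1 and 2, and 39.99 and 32.0 CPM in injured rounds 1 and 2. The group means were 172 ± 9.03 CPM in controls and 36.0 ± 5.64 CPM after injury (SD, n = 2 each), and the groups did not overlap. Within rounds, controls exceeded injured libraries 4.14 times (3.40 to 5.02) and 5.57 times (4.80 to 6.46). The fit with injury only gave a log2 change of -2.20 (SE 0.34, adjusted p 0.0853). The adjusted p was 5.8e-05 with round as a block, and 0.00913 to 0.0440 with 1 library left out. Fbln2, the other long fibulin of the list (ENSMUSG00000064080, chromosome 6, 91212455 to 91272540, plus strand), read 179 and 193 CPM in the controls against 142 and 298 CPM after injury. It too went opposite ways, at 0.788 times (0.674 to 0.926) in round 1 and 1.54 times (1.39 to 1.71) in round 2, with a log2 change of 0.32 (SE 0.45, adjusted p 0.928).

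**Figure D1:**
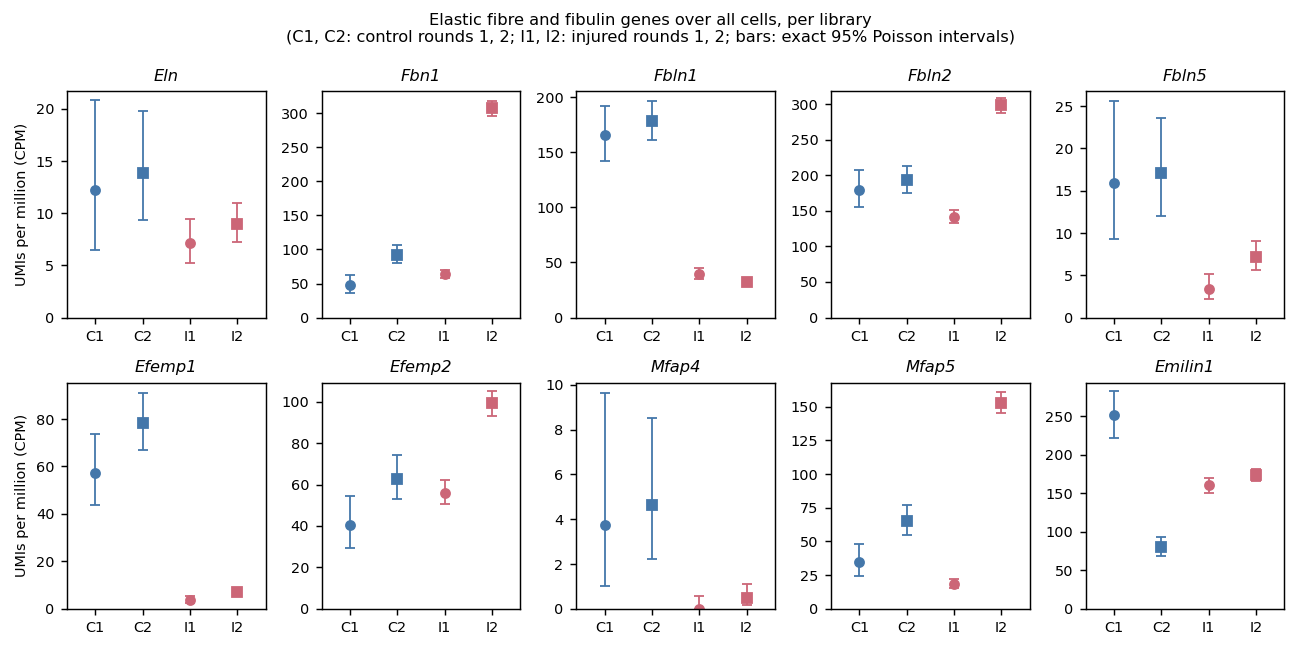
Each panel plots 1 gene in CPM (y axis, linear, from 0) for the control (C1, C2) and injured (I1, I2) libraries of rounds 1 and 2 on the x axis, over all cells, with exact 95% Poisson intervals. Fbln1, Fbln5, Efemp1, Eln and Mfap4 lie lower in both injured libraries, and Fbn1, Fbln2 and Mfap5 stand out in injured round 2 alone.

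The sequence just before the start of Efemp1 and Fbln1 is shown because these genes were called lower after injury in sets of cells described below. Sequences of this kind were matched for 7 of the 10 genes in RefSeq, assembly GRCm38.p6. Both windows are the 250 bases before a start, 5′ to 3′ on the plus strand of the gene, at chr11:28852955-28853204 for Efemp1 and chr15:85205699-85205948 for the first start of Fbln1. Capitals mark matches, on either strand, to 1 of the motifs searched: TGANTCA for AP-1, CAGAC for the SMAD factors, CATTCC for TEAD, GGGCGG for the GC box, and TATAAA for the basal TATA element.
Efemp1: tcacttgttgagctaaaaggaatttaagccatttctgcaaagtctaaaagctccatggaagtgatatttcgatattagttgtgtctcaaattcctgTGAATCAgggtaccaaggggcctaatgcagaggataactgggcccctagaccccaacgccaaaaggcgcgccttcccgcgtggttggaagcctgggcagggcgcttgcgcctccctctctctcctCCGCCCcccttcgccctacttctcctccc
Fbln1: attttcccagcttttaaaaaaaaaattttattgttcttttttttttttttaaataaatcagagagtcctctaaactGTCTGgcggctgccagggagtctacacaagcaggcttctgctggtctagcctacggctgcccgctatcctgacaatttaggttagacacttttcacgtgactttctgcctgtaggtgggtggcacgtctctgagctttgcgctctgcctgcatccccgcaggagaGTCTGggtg
The Efemp1 window held an AP-1 match whose first base was 154 bases before the start and a GC box match at 29 bases. The Fbln1 window held SMAD matches at 174 and 9 bases. Of 32851 promoter windows of the same length, 6.75% held the AP-1 letters, 42.2% the SMAD letters, 32.7% the GC box, 12.6% the TEAD letters and 12.4% the TATA letters. The 2 printed windows shared no motif. A second start of Fbln1 had a window, not printed, with SMAD matches at 233 and 68 bases and a GC box match at 11 bases, so with that start both genes held a GC box. A match is only a run of letters.

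Cells were grouped without the 10 genes or the companion genes named further on, so the levels by group are not what formed the groups. They are given as a description, without a test. The inner annulus or cartilage-like class joined 3 clusters, led by Grem1 and Cnmd, by Cxcl2 and Nos2, and by Saa1 and Lcn2, and held 183 and 241 control cells in rounds 1 and 2 and 421 and 754 injured cells. The class named outer annulus or fibroblast-like had 15 and 14 control cells and 33 and 430 injured cells. Of its 492 cells, 264 were in a cluster led by Aspn, Cthrc1 and Postn, 72 in a dividing cluster and 156 in a shallow one with a median of 623 UMIs. A further cluster, led by Myoc, Angptl7, Cilp2 and Fmod, detected 10 of the 19 outer and 8 of the 17 inner markers and was left without a class name. It had 46 and 63 control cells and 82 and 363 injured cells. Rebuilt names can differ from those of the study.

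Fbn1, Fbln2 and Mfap5 were concentrated in the fibroblast-like cells. The outer class gave 15.4% of all UMIs but 74.1% of those of Fbn1, 55.7% of Fbln2 and 86.9% of Mfap5. In the Aspn and Cthrc1 cluster, summed over libraries, Fbn1 reached 992 CPM, Fbln2 884 and Mfap5 640. Its dividing neighbour had 899, 832 and 336 CPM. The 3 clusters of the inner class held 31.3 to 44.2 CPM of Fbn1 and at most 0.627 CPM of Mfap5. Of the 264 cells of the Aspn and Cthrc1 cluster, 244 came from injured round 2, where it made up 13.3% of cells, against 1.32% and 0.350% in control rounds 1 and 2 and 1.54% in injured round 1. Injured round 2 thus had both the highest share and the highest level of each of the 3 genes over all cells, while the other 3 libraries did not follow the order of the share. Its part in the levels was not tested.

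Efemp1 and Fbln1 had another distribution. The Grem1 and Cnmd cluster held 49.7% of Efemp1 UMIs with 10.0% of all UMIs, at 79.7 CPM, and the Myoc and Fmod cluster had none. There, 3 counts would be between 1.09 and 14.3 CPM per library. The remainder of the inner class had 1.85 CPM of Efemp1. The Grem1 and Cnmd cluster gave 24.7% of Fbln1 UMIs and the Myoc and Fmod cluster 46.8%. Summed over libraries these clusters stood at 140 and 128 CPM of Fbln1, but the order depended on the group. In controls the means were 138 ± 10.4 CPM in the Grem1 and Cnmd cluster and 389 ± 41.8 CPM in the Myoc and Fmod cluster, and after injury 142 ± 102 and 84.8 ± 6.73 CPM (SD, n = 2 each). The Aspn and Cthrc1 cluster had 22.7 CPM.

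Emilin1 and Efemp2 were found in all matrix clusters once libraries were summed, but injured cells made up most of some of these sums. Emilin1 ranged from 128 to 268 CPM over the 3 inner clusters, the Myoc and Fmod cluster, the Aspn and Cthrc1 cluster and the dividing cluster. Efemp2 ranged from 56.4 to 185 CPM over the same 6. In controls alone Emilin1 was at 240 ± 224 CPM in the Grem1 and Cnmd cluster, at 58.6 ± 45.0 CPM in the Myoc and Fmod cluster and at 0 in the 8 control cells of the Aspn and Cthrc1 cluster, and after injury at 249 ± 23.0, 133 ± 28.5 and 112 ± 91.2 CPM (SD, n = 2 each). In those 8 control cells, 3 counts would be 116 and 138 CPM in rounds 1 and 2. That is above the injured mean of 112 CPM, so the 0 cannot be told from it. Efemp2 in controls had means of 50.1 ± 12.9 CPM in the Grem1 and Cnmd cluster and 26.5 ± 2.81 CPM in the Myoc and Fmod cluster. Summed over libraries, Fbln5 had 27.8 CPM in the Aspn and Cthrc1 cluster, 14.1 in the dividing cluster and 11.7 in the Grem1 and Cnmd cluster, with at most 3.74 in the rest. By group, the Myoc and Fmod cluster, at 3.74 CPM in the sum, had Fbln5 means of 16.4 ± 10.5 CPM in controls and 2.45 ± 1.41 CPM after injury, beside 14.3 ± 4.38 and 1.85 ± 2.61 CPM in the Grem1 and Cnmd cluster (SD, n = 2 each). These means rest on 0 to 17 UMIs per library, and the clusters were not compared by a test. Mfap4 had 0 to 2 UMIs in each of the inner clusters and the Myoc and Fmod cluster.

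In the vascular groups, Eln was above its level in every matrix cluster of the inner class. Mural-like cells (39 cells with 9 Eln UMIs in all) had 52.7 CPM, and endothelial-like cells (64 cells, 12 UMIs) had 47.3 CPM, against 12.6 CPM in the Grem1 and Cnmd cluster. The Aspn and Cthrc1 cluster had 18.1 CPM, the dividing cluster 32.1 CPM, and the Ccl11 and Dpep1 cluster, described below, 133 CPM. Endothelial-like cells of injured round 1 had 34.8 CPM (12.8 to 75.8), and the dividing cluster of injured round 2 had 34.9 CPM (22.6 to 51.5). Each library added few UMIs, with 2 and 1 Eln UMIs from endothelial-like control cells and 6 and 3 from injured ones. The mural-like level rests on the injured libraries alone, with 7 and 2 Eln UMIs there and 0 in the 2 cells of either control. In barcodes with under 100 UMIs, which hold free RNA, Eln read 8.46 and 7.64 CPM in the injured libraries and 10.3 CPM in control round 2. Fbn1 stood at 357 CPM in the mural-like cells, from 387 and 368 CPM in injured rounds 1 and 2 and 254 in control round 2, where 2 cells held 5 UMIs. Fbln2 had 162 CPM in the endothelial-like cells. No UMI of Fbln1, Fbln5, Efemp1 or Mfap4 was found in either vascular group. There, 3 counts would be 17.4 to 314 CPM per library in endothelial-like cells and 33.2 to 833 CPM in mural-like cells. Over all cells Efemp1, Fbln5 and Mfap4 stood at 16.1, 7.46 and 0.926 CPM, so their absence cannot be judged at this depth. In macrophage or monocyte-like cells the 10 genes lay between 0 and 39.7 CPM, the highest being Emilin1. Free RNA gave Emilin1 43.6 and 26.2 CPM in the injured libraries and 12.3 CPM in control round 2.

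A cluster led by Ccl11, Dpep1, Lpl and Hsd11b1 had the highest level of 7 of the 10 genes among the groups plotted: Eln, Fbln1, Fbln5, Efemp1, Efemp2, Mfap4 and Mfap5. Mfap5 reached 1301 CPM, Fbn1 850, Fbln2 618, Fbln1 578 and Efemp1 551 CPM. These are sums over libraries, and the order for Fbn1 depended on the group. In the Aspn and Cthrc1 cluster Fbn1 was higher in the sum, but the group means were 265 ± 210 CPM there and 682 ± 83.8 CPM in the Ccl11 and Dpep1 cluster in controls, and 906 ± 168 and 2278 ± 970 CPM after injury (SD, n = 2 each). The libraries gave these clusters unequal shares of cells, with 244 of the 264 cells of the former from injured round 2. Mfap4 in the Ccl11 and Dpep1 cluster rested on 7 UMIs, all of control round 2. The cells of this cluster were shallow, with a median of 386 UMIs, and 267 of the 321 were in control round 2. Of its 18 barcodes in control round 1, 94.4% had similar UMIs in both round 1 libraries, so it was left unnamed. It gave 25.2% of all Efemp1 UMIs and 10.2% of those of Mfap5. Without it and the other 3 clusters of that kind, Efemp1 over all cells was at 49.3 ± 3.01 CPM in controls and 4.71 ± 2.86 CPM after injury, and Mfap5 at 10.1 ± 9.31 and 83.2 ± 94.9 CPM (SD, n = 2 each).

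**Figure D2:**
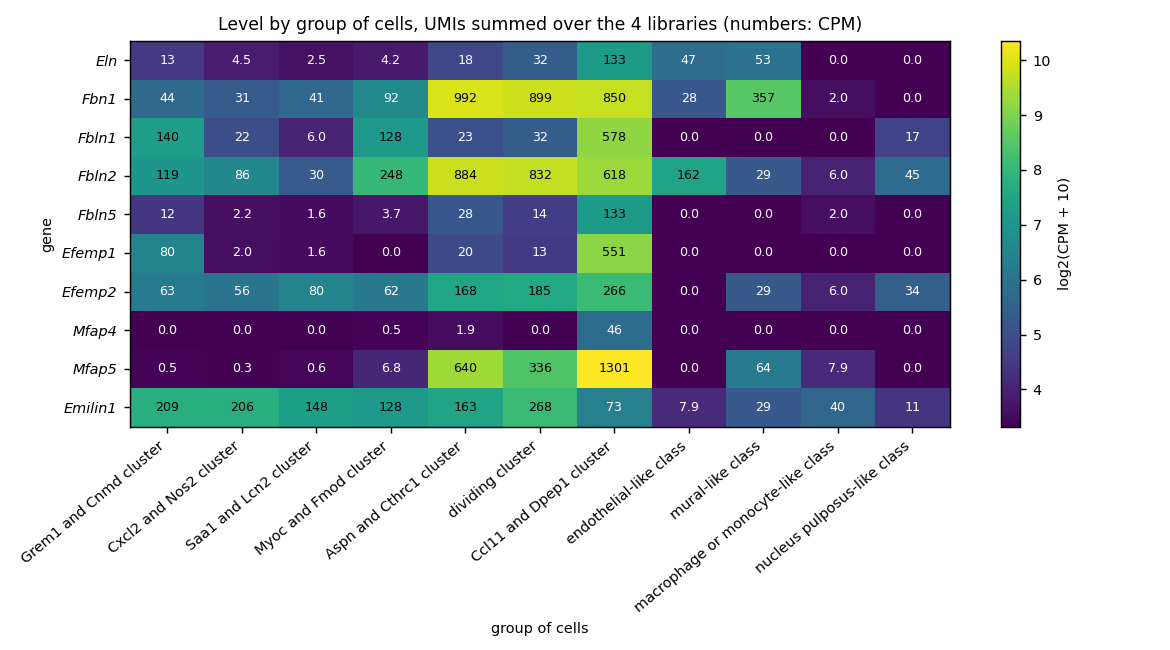
Rows are the 10 genes and columns are groups of cells, with UMIs summed over the 4 libraries. The colour is log2(CPM + 10) and the number in each box is the CPM. Fbn1, Fbln2 and Mfap5 are highest in the Aspn and Cthrc1, dividing, and Ccl11 and Dpep1 clusters, and Efemp1 is at 0 in the Myoc and Fmod cluster and 79.7 CPM in the Grem1 and Cnmd cluster.

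Within the inner class, Efemp1 fell after injury, and it was 1 of 9 genes called, all lower, of 10292 tested (0.0874%). Its levels were 73.3 and 81.2 CPM in control rounds 1 and 2, and 1.81 and 5.67 CPM in the injured libraries. Each control lay far above each injured library, 40.5 times (19.6 to 94.1) in round 1 and 14.3 times (9.16 to 23.2) in round 2. The log2 change was -4.25 (SE 0.58, adjusted p 0.0456). With shared barcodes left out of control round 1 its level there was 81.04 CPM, and the gene was still called (0.0340). Both injured levels were at or below those of free RNA, which held 8.46 and 5.73 CPM of Efemp1 in the injured libraries. The call was lost, with adjusted p from 0.0564 to 0.0583, with DESeq2 size factors, with cells of at least 502 UMIs, with the 10 genes kept for clustering and at a finer clustering. It was also lost in cells thinned to 1000 UMIs (-2.72, adjusted p 0.479) and without injured round 2 (-5.31, adjusted p 0.999).

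Fbln1 and Fbln5 were also low in the inner class after injury. Fbln1 stood at 120 and 115 CPM in the controls and 35.6 and 10.7 CPM in the injured libraries, a log2 change of -2.25 (SE 0.54, adjusted p 0.220). Fbln5 read 9.35 and 13.8 CPM against 2.81 and 1.13 CPM, a change of -2.44 (SE 0.68, adjusted p 0.308). Free RNA of injured rounds 1 and 2 held 11.1 and 6.82 CPM of Fbln5, above the injured levels of the class. It held 17.6 and 10.1 CPM of Fbln1, so the Fbln1 level of injured round 2 was close to that of free RNA. With round as a block, which called 8.09% of genes, Efemp1, Fbln1 (adjusted p 7.4e-13) and Fbln5 (0.00236) were called lower. With injury only, Fbln1 was called by DESeq2 (0.0162), and by edgeR without control round 1 (0.0206), without control round 2 (0.00314) and without injured round 1 (0.00228), fits that called 0.933%, 1.47%, 0.692% and 0.897% of all genes in turn. Eln was at 9.35 and 11.4 CPM in controls and 5.02 and 3.63 after injury (adjusted p 0.670). Fbln2 had 128 and 101 CPM against 92.4 and 44.2 (0.777). Levels of Fbn1, Efemp2 and Emilin1 overlapped between the groups. With 2 against 2 libraries an exact permutation test gives a p of 0.33 at the smallest, so separation of the groups carries little weight. The share of all genes that separated was not counted. Fbn1 had 21.8 and 62.5 CPM in controls and 29.9 and 38.3 after injury, Efemp2 had 42.1 and 64.9 against 53.2 and 79.4, and Emilin1 had 376 and 110 against 188 and 187 CPM. Of the 8 genes that passed the filter, 7 had a negative change, with a median of -0.90 beside -0.04 for all genes tested. Mfap4 and Mfap5, at 0 to 3 UMIs per library, did not pass.

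The clusters that make up the inner class were not the same in the 2 groups. The Grem1 and Cnmd cluster held 50.8% and 87.6% of inner-class cells in control rounds 1 and 2, and 7.84% and 10.1% after injury. Without barcodes shared in round 1 it held 93 of the 101 inner-class cells of control round 1. Most inner-class cells of the injured libraries were in the Cxcl2 and Nos2 cluster in round 1 (346 of 421) and in the Saa1 and Lcn2 cluster in round 2 (505 of 754). Of the 181 Efemp1 UMIs in the class, 164 were in the Grem1 and Cnmd cluster. The remaining inner clusters had 1 and 0 Efemp1 UMIs in the controls and 7 and 9 after injury, at 9.55 and 0 CPM and at 1.49 and 2.17 CPM. The round 1 ratio of injured to control there was 0.156 (0.020 to 7.01), so no difference was detectable at this depth. Without shared barcodes the same single UMI of control round 1 came to 23.2 CPM in 8 cells. Fbln1 in the remaining inner clusters had overlapping means of 33.4 ± 47.3 CPM in controls and 16.0 ± 13.1 CPM after injury. Fbln5 there was at 0 in controls and 1.98 ± 1.10 CPM after injury (SD, n = 2 each). At the control depth this is not detectable, since 3 counts would be 31.0 and 30.4 CPM in the Cxcl2 and Nos2 cluster. Summed markers of the outer class were also higher in the injured inner class, at 17713 and 11705 CPM against 7025 and 4449 CPM, with 0 to 3 of the 19 markers at 0. So were the sums of macrophage markers (71.3 and 69.2 CPM against 63.9 and 33.3, with 3 to 8 of 12 at 0), of nucleus pulposus markers (903 and 924 against 804 and 627, with 2 to 6 of 10 at 0) and of the class's own 17 markers (21267 and 20229 against 18866 and 14103). B or plasma cell markers were lower (1.61 and 2.72 against 7.79 and 4.06, with 5 or 6 of 8 at 0). Their part in the result was not tested.

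Inside the Grem1 and Cnmd cluster (93 and 211 control cells, 33 and 76 injured cells), no gene of 5303 was called by edgeR (0.0%), 85 (1.6%) had an unadjusted p under 0.05, and DESeq2 called 0. Efemp1 was at 85.7 and 102 CPM in the controls, 7.39 CPM in injured round 1, which is 2 UMIs, and 59.0 CPM in injured round 2. The injured level was 0.0863 times the control in round 1 (0.0101 to 0.330) and 0.577 times in round 2 (0.318 to 0.984). Its log2 change was -1.45 (SE 0.74, adjusted p 0.9999), and the adjusted p was 0.0524 in the blocked fit, which called 0.83% of genes. Fbln1 went opposite ways, from 130 to 214 CPM in round 1, 1.64 times (1.14 to 2.36), and from 145 to 70.0 CPM in round 2, 0.483 times (0.282 to 0.782). Its log2 change was 0.03 (SE 0.54), which does not show that its level was unaltered. Emilin1 went from 399 to 233 CPM in round 1 and from 81.8 to 265 CPM in round 2. Efemp2 was higher in both, at 1.80 times in each round (0.934 to 3.46, and 1.11 to 2.86), with a log2 change of 0.86 (SE 0.48, adjusted p 0.9999). Of the 10 genes, 6 passed the filter, and none was called with round as a block. Several marker sums of this cluster moved with injury too. Epidermis markers summed to 592 and 232 CPM in controls and 1597 and 907 CPM after injury, with 3 to 5 of the 8 at 0 and Krt5 and Krt15 at 0 in all 4 libraries. The 19 outer annulus markers summed to 6016 and 3325 CPM against 9115 and 7028 CPM (2 to 4 at 0), and the 17 inner markers to 19509 and 12286.5 CPM against 28406 and 24483 CPM (0 or 1 at 0). Endothelial markers were lower after injury, at 35.4 and 13.3 CPM against 11.1 and 7.37 CPM (7 or 8 of 10 at 0), as were B or plasma cell markers, at 7.45 and 4.09 CPM against 0 and 3.69 CPM (5 to 8 of 8 at 0). Their part in these changes was not tested.

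**Figure D3:**
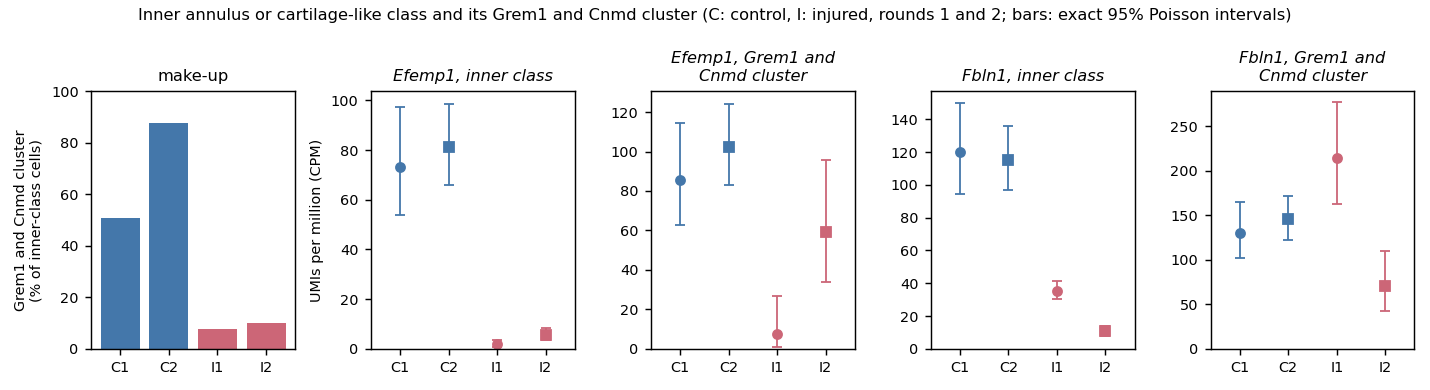
The bars give the Grem1 and Cnmd cluster as a percentage of inner-class cells in control (C1, C2) and injured (I1, I2) libraries. The points give Efemp1 and Fbln1 in CPM with exact 95% Poisson intervals in the whole inner class and in that cluster. Both genes are lower in both injured libraries over the class, while in the cluster Fbln1 is highest in injured round 1 and Efemp1 overlaps in its intervals in round 2.

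In the Myoc and Fmod cluster, Fbln1 fell after injury. It was 1 of 19 genes called, 10 of them lower, of 6357 tested (0.299%). The groups held different parts of this cluster, as described after its values. Its levels were 419 and 359 CPM in control rounds 1 and 2, and 89.6 and 80.0 CPM in injured rounds 1 and 2. The controls exceeded the injured libraries 4.67 times (3.41 to 6.42) and 4.49 times (3.64 to 5.53), a log2 change of -2.09 (SE 0.36, adjusted p 0.0449). With control round 1 freed of shared barcodes its level there was 424 CPM, and the gene was still called. The call was lost without injured round 1 (0.0819), control round 2 (0.158) or injured round 2 (0.359). It was also lost in cells under 10% mitochondrial UMIs (0.0529) and in cells thinned to 1000 UMIs (-1.70, 0.198).

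A finer clustering, at resolution 1.5, divided this cluster, and control and injured cells lay mostly in different parts. The part led by Myoc and Angptl7 held 29 and 47 control cells and 15 and 63 injured cells, and the part led by Fmod and Spp1 held 10 and 14 control cells and 67 and 291 injured cells. Fbln1 in the Myoc and Angptl7 part stood at 472 and 415 CPM in control rounds 1 and 2 and at 344 and 252 CPM in injured rounds 1 and 2. It was lower in both injured libraries there, by less than in the whole cluster. In the Fmod and Spp1 part it had 385 CPM in control round 1 (10 UMIs), 91.7 in control round 2 (7 UMIs), and 50.9 and 51.4 CPM after injury. Efemp2 in the Myoc and Angptl7 part read 37.7 and 21.7 CPM in controls and 36.2 and 36.4 CPM after injury, from 4 to 14 UMIs per library. Emilin1 in that part read 75.5 and 13.6 CPM in controls and 63.4 and 36.4 CPM after injury. Levels in the parts were compared after seeing the data and without a test, since some libraries had under 20 cells. In the whole cluster, a change of parts and a change within cells were not separated.

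Efemp2 and Emilin1 were higher in both injured libraries of the whole cluster. Efemp2 stood at 28.5 and 24.6 CPM in the controls and 72.3 and 66.9 CPM after injury, 2.53 times (1.10 to 7.17) and 2.73 times (1.49 to 5.56) within rounds. Its log2 change was 1.53 (SE 0.43, adjusted p 0.210). Emilin1 was at 90.4 and 26.8 CPM in the controls and 113 and 153 CPM after injury, with a log2 change of 1.44 (SE 0.54, adjusted p 0.351). Its round 1 ratio of 1.25 (0.756 to 2.16) held 1, and that of round 2 was 5.70 (3.23 to 11.1). In the blocked fit, with 8.6% of genes called, both rose (adjusted p 0.00656 and 0.000226), and Fbln1 again fell (2.19e-10). Without control round 1, Emilin1 was called at 0.00934, against 1.91% of all genes.

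Fbn1 had 47.6 and 75.9 CPM in the controls of the Myoc and Fmod cluster and 101 and 95.3 CPM after injury (log2 change 0.74, SE 0.38, adjusted p 0.523). Fbln2 had 357 and 402 CPM against 352 and 182 CPM, level in round 1 and lower in round 2 (0.454 times, 0.382 to 0.541). Fbln5 rested on 3 to 5 UMIs per library, at 23.8 and 8.93 CPM in controls and 3.44 and 1.46 CPM after injury. Eln had 0 to 10 UMIs per library, Mfap5 1 to 22 and Mfap4 0 to 2, and 5 of the 10 genes passed the filter here. Marker sums of 5 lists were higher in both injured libraries of this cluster. Macrophage markers summed to 19.0 and 20.1 CPM in controls and 35.6 and 28.4 CPM after injury (3 to 10 of 12 at 0), and endothelial markers to 0 and 2.23 CPM against 2.30 and 8.0 CPM (6 to 10 of 10 at 0). B or plasma cell markers summed to 0 and 2.23 CPM against 5.74 and 2.55 CPM (6 to 8 of 8 at 0), and mural markers to 233 and 232 CPM against 325 and 442 CPM (4 to 8 of 11 at 0). The 19 outer markers summed to 33921 and 40611 CPM against 51707 and 48484 CPM (1 or 2 at 0). Nucleus pulposus markers were lower in both injured libraries, at 309 and 243 CPM in controls and 242 and 189 CPM after injury (4 to 7 of 10 at 0). Their part in the changes was not tested. Median UMIs per cell were 4073.5 and 5792 in controls and 9681 and 6480 after injury.

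**Figure D4:**
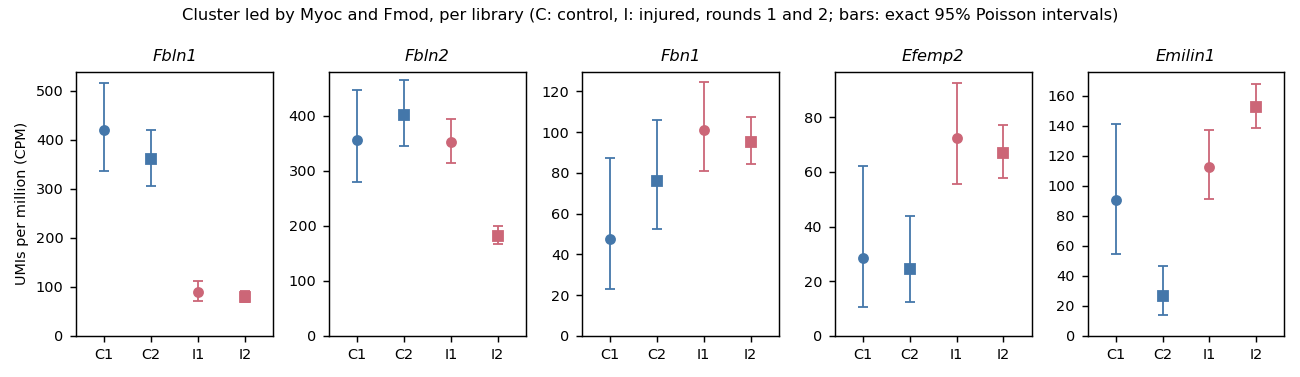
The y axes give CPM in the Myoc and Fmod cluster for 5 genes, and the x axis the control (C1, C2) and injured (I1, I2) libraries of rounds 1 and 2, with exact 95% Poisson intervals. Fbln1 is at 359 and 419 CPM in controls and 80.0 and 89.6 CPM after injury, and Efemp2 shows the opposite order at a lower level.

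Whether the response to injury differed between the Myoc and Fmod cluster and the inner class was tested by an interaction term, with library as a term in edgeR. Neither edgeR nor DESeq2 called any of the 7 listed genes that could be fitted, while 3 of them, Emilin1, Fbn1 and Efemp2, had an unadjusted p under 0.05 in edgeR, against 5.61% of all genes. Of 8884 genes, 6 were called (0.0675%). Emilin1 had the smallest p of the 7, with a response 1.59 higher on the log2 scale in the Myoc and Fmod cluster (SE 0.33, adjusted p 0.203), and it was called without injured round 1 (0.0188), against 0.441% of all genes. Fbln1 differed by 0.39 (SE 0.41, adjusted p 0.972). All 7 estimates were positive, with a median of 1.04 beside 0.04 for all genes. Efemp1 could not be fitted, having no UMI in the cluster.

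**Figure D5:**
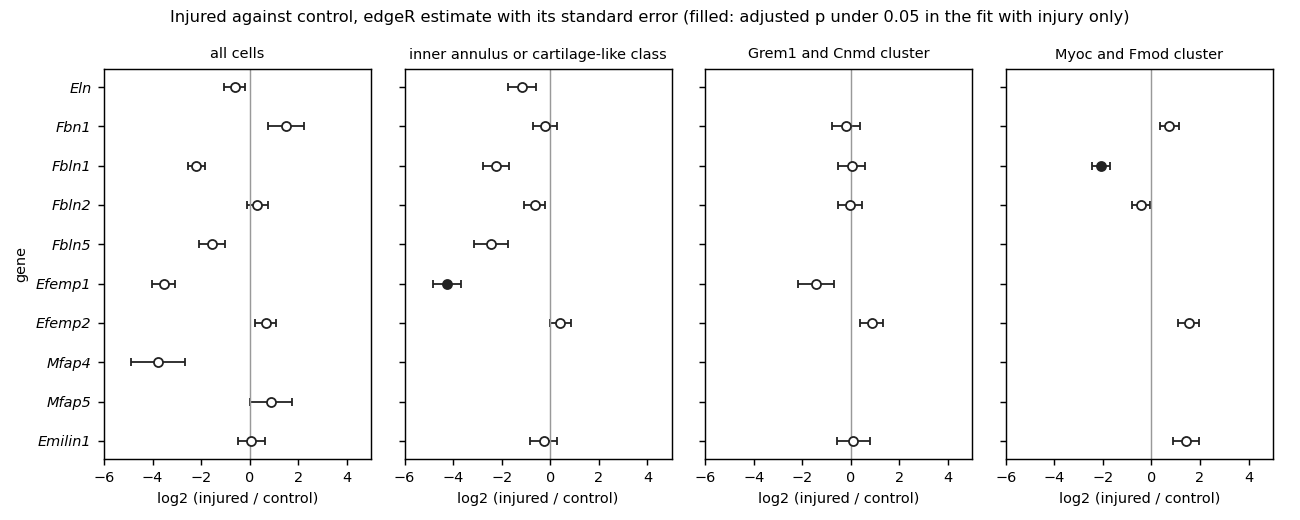
Points are log2 changes of injured against control from edgeR, with bars of 1 SE, for each gene (y axis) in 4 sets of cells; filled points have an adjusted p under 0.05 in the fit with injury only, and a gene without a point did not pass the filter on low counts. The filled points are Efemp1 in the inner class and Fbln1 in the Myoc and Fmod cluster.

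The outer class of the main clustering was too small in the controls for a test, with 15 and 14 cells. Its Fbn1 levels were 364 and 316 CPM in the controls and 513 and 965 CPM after injury, and its Fbln2 levels 516 and 916 against 576 and 853 CPM. Without shared barcodes 6 cells were left in control round 1, where Fbn1 was at 113 CPM (3 UMIs), Fbln2 at 492 and Mfap5 at 529 CPM. With them, Mfap5 rested on 16 and 1 UMIs in the controls, at 485 and 31.6 CPM, and stood at 406 and 543 CPM after injury. A finer clustering, at resolution 1.5, gave an outer class large enough to test, with 44 and 61 control cells. There 71 of 5014 genes were called (1.42%), Fbn1 among the 46 that were higher (log2 change 2.78, SE 0.53, adjusted p 0.0284) and Fbln1 among the 25 that were lower (-2.32, SE 0.50, adjusted p 0.0416). Mfap5 had a change of 2.96 (SE 0.70, adjusted p 0.0600). At that resolution the class took in the Myoc and Angptl7 part, which made up 29 of its 44 cells in control round 1 and 47 of 61 in control round 2, but 15 of 50 in injured round 1 and 63 of 493 in injured round 2. The Aspn and Cthrc1 cluster gave 5 and 3 of its control cells and 12 and 244 of its injured cells. Control and injured cells of the class were thus of different clusters, and the part of this in the changes of Fbn1 and Fbln1 was not tested.

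The companion genes were 48 in 4 lists: partners of microfibrils and elastic fibres, crosslinking and secretion, proteases that cleave elastin, and inhibitors of elastases. Over all cells 36 passed the filter, and 1 was called by edgeR, 6 by DESeq2 and 10 with round as a block, where the shares of all genes called were 0.0834%, 1.5% and 6.7%. This was Serpina1e, an elastase inhibitor of the alpha-1-antitrypsin family, at 77.1 and 58.8 CPM in the controls and 0.297 and 0.284 CPM after injury (log2 change -7.69, SE 0.52, adjusted p 0.0049). Of its 214 UMIs, 197 were in the nucleus pulposus-like class, which held 29 and 71 cells in the controls and 4 and 1 after injury. Near-identical copies of this gene make its counts uncertain. The 9 crosslinking and secretion genes, which include Lox and its relatives, all had positive changes with a median of 0.94, beside -0.01 for all genes. None of them was called by edgeR or DESeq2, 3 had an unadjusted p under 0.05, beside 7.89% of all genes, and 3 were called higher with round as a block. The 14 tested partners had a median of 0.14 and 3 with an unadjusted p under 0.05, to be read against the same 7.89%, none called by edgeR and 2 by DESeq2. Of 6 proteases, none was called by either tool or had a p under 0.05.

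Within the Myoc and Fmod cluster, 25 companions passed the filter and 3 rose, where edgeR called 0.299% of all genes. Timp1, a metalloproteinase inhibitor, went from 166 and 87.1 CPM in controls to 1270 and 1395 CPM (log2 change 3.53, SE 0.46, adjusted p 0.0163). Slpi, which inhibits leukocyte elastase, went from 42.8 and 20.1 to 241 and 300.1 CPM (3.34, SE 0.48, adjusted p 0.0163). Ltbp2, a latent TGF-beta binding protein relative found in elastic fibres, went from 66.6 and 42.4 to 357 and 295 CPM (2.73, SE 0.41, adjusted p 0.0224). DESeq2 called 6 companions higher and 2 lower, against 2.06% of the genes to which it gave an adjusted p, and the blocked fit 9 and 6, against 8.6%. All 5 tested proteases had negative changes there (median -1.09), and 3 of them were called in the blocked fit. In the inner class 27 companions passed and none was called by edgeR, 9 had an unadjusted p under 0.05 (7.99% of all genes), and DESeq2 called 5 (0.933% of all genes). In the Grem1 and Cnmd cluster, 19 passed, 2 had such a p (1.6% of all genes), and neither tool called any. In the interaction 27 were tested and neither tool called any, with 7 under that p in edgeR (5.61% of all genes).

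Likeness was measured as Pearson's r of log2(CPM + 10) over 11 sums of a library and a named class, which share libraries and depth, so it is a description. Unnamed clusters were left out, among them the Myoc and Fmod cluster, which held 46.8% of Fbln1 UMIs and no UMI of Efemp1. The likeness of Fbln1 and Efemp1 given below therefore does not cover those cells. Among 2921 other genes, Mfap5 was most like Aspn (0.99) and Serpinf1 (0.99), and Fbn1 most like Col12a1 (0.98) and Fndc1 (0.97). Fbln2 came closest to Cd81 (0.98) and Serpinh1 (0.95), and Efemp2 to Nenf (0.96) and Col5a1 (0.95). Fbln1 and Efemp1 had the same nearest gene, Cilp, at 0.93 and 0.91, followed by Gas1 for Fbln1 and Ecm2 for Efemp1, both 0.89. Eln was nearest to Ltbp4 (0.91) and Gng11 (0.89), Fbln5 to Fndc1 (0.91) and Thbs4 (0.89), and Emilin1 to Slc39a14 (0.96) and Tnfaip6 (0.94). Of 36 pairs among the listed genes, Fbn1 with Mfap5 had the highest r at 0.87, then Fbln1 with Efemp1 at 0.85, and Fbln1 with Mfap5 the lowest at 0.06. Mfap4 had too few UMIs for this comparison.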

How the data were processed

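The deposited values were raw UMI counts per gene and barcode in 4 matrices, made with Cell Ranger on mm10 and 10x 3′ version 3 chemistry, per the file headers, the labels' protocols and the submitters' processing notes. Version 6.0.0 is named for control round 1 and version 4 for the other libraries. Whether strand was used in counting is not given in the sources used here, and Fbn1, Eln, Mfap4 and Efemp2 overlap a gene on the opposite strand.

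Barcodes with at least 250 genes were kept as cells, no doublet caller was run, and cells were clustered with scanpy 1.11.5 and leidenalg 0.10.2 (2000 variable genes, 30 components, resolution 1) without the 10 genes and 48 companions. Clusters were named from marker lists, by at least 3 markers. A cluster in which over 50% of the control round 1 barcodes had similar UMIs in injured round 1 stayed unnamed. The members and lists were chosen with earlier results of these data known. UMIs were summed per library and set of cells and tested with edgeR 4.0.16 (filterByExpr, TMM, quasi-likelihood, Benjamini-Hochberg over all genes tested, called at adjusted p under 0.05), in R 4.3.3. The 2 control and 2 injured libraries entered with injury only. DESeq2 1.42.0 and a fit with round as a block were alternatives. Rounds pair the libraries, because both kinds of disc came from the same animals; deviations from the group means within a round correlated at 0.528 over all cells, 0.535 in the inner class, 0.377 in the Myoc and Fmod cluster and 0.542 in the Grem1 and Cnmd cluster. Ratios carry exact 95% intervals and the floor is 3 counts. The fits were tested on simulated data before use.

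All 10 genes were described, and companions called by edgeR and the 2 genes most like each member were named. The planned test of the outer class, and of its response against the inner class, had too few control cells (under 20 per library). The Myoc and Fmod cluster and the Grem1 and Cnmd cluster were tested in its place, a choice made after seeing the cell numbers. Alternatives were other filters, size factors, minimum genes or UMIs per cell, mitochondrial limits, clusterings, cells thinned to 1000 UMIs, and leaving out shared barcodes or 1 library. Where 1 library was left out, the lone library of its group was assumed to vary like the others. Gene positions are from GENCODE vM21 on GRCm38.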

Additional observations from a re-analysis of the deposited data

Results flagged for a closer look

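Some genes moved in opposite directions in the rounds, with counting intervals on either side of 1. Over all cells, the injured level over the control level was 0.788 in round 1 and 1.54 in round 2 for Fbln2, 0.539 and 2.35 for Mfap5, and 0.639 and 2.16 for Emilin1. In the inner class it was 0.501 and 1.69 for Emilin1. In the Grem1 and Cnmd cluster it was 1.64 and 0.483 for Fbln1 and 0.584 and 3.25 for Emilin1. Without barcodes shared in round 1, control round 1 held 16.9 CPM of Mfap5 against 18.7 CPM in injured round 1, so that its opposite directions rest on those barcodes. The difference between rounds was not tested, since each round holds 1 library per group.

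Barcodes with under 100 UMIs, which enter no test of injury, also held more of some of these transcripts in injured than in control round 2. The ratio of injured to control CPM was 4.19 for Fbn1, 2.70 for Fbln2, 2.62 for Efemp2, 2.79 for Mfap5 and 2.12 for Emilin1. Control round 1 listed no such barcode, so round 1 gave no ratio.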

How the results depend on the processing

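Of 582 changes of single genes under the alternatives, 503 kept direction and side of the threshold, 38 passed it, 11 lost it and 30 reversed, and 23 of 36 results never reversed. With 2 libraries per group, and shallow control cells, calls moved with most choices. The causes were not tested, except that fewer libraries, cells or genes enter some settings.

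Over all cells the 10 calls became 34 with no filter on low counts, 180 with DESeq2, 803 with the replicate block (pairing by round), 0 with at least 500 genes per cell, 29 with at least 502 UMIs, 19 under 10% mitochondrial UMIs, 2 without barcodes shared in round 1 (3 by UMI ratio) and 2 without clusters of shared barcodes. The block gave 247 and 933 calls with those 2 exclusions, by ratio and by cluster. Leaving out 1 library gave 124 to 271. In the inner class the 9 calls became 209 with no filter, 0 with DESeq2 size factors, 96 with DESeq2, 833 with the block, 14 with at least 500 genes, 0 with the UMI minimum, 16 under the mitochondrial limit, 16 without shared barcodes by either rule, and 0 with the listed genes kept, at resolution 1.5 or thinned. Leaving out 1 library gave 0 to 171. In the Myoc and Fmod cluster the 19 calls became 175 with no filter, 70 with DESeq2, 547 with the block, 12 under the mitochondrial limit and 0 thinned, and 0 to 154 without 1 library. In the Grem1 and Cnmd cluster 0 calls became 13 with no filter, 44 with the block and 0 to 15 without 1 library. In the interaction 6 calls became 54 with no filter, 11 under the mitochondrial limit, 19 with listed genes kept and 12 to 90 without 1 library.

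Reversed log2 changes over all cells were Emilin1 at -0.022 with at least 500 genes, -0.024 without shared barcodes and -0.058 by ratio, and Mfap5 at -0.80 thinned. In the Grem1 and Cnmd cluster, Fbln1 was -0.0076 with no filter, -0.074 with the block, -0.88 at resolution 1.5 and -0.37 thinned, Fbln2 was 0.078 with listed genes kept and 0.093 at resolution 1.5, and Emilin1 was -0.0076 at resolution 1.5 and -0.26 thinned. Leaving out 1 library turned further changes. Over all cells, Fbn1 ran from -0.12 without injured round 2 to 2.24 without injured round 1, Fbln2 from -0.36 to 0.79 and Mfap5 from -1.39 to 1.72 without the same libraries, and Emilin1 from -0.53 without control round 2 to 1.16 without control round 1. In the inner class, Fbn1 ran from -0.70 without control round 1 to 0.74 without control round 2, and Emilin1 from -0.91 without control round 2 to 0.93 without control round 1. In the Grem1 and Cnmd cluster, Fbn1 ran from -0.71 without control round 1 to 0.72 without control round 2, Emilin1 from -0.56 without control round 2 to 1.58 without control round 1, Fbln1 from -0.88 without injured round 1 to 0.62 without injured round 2, and Fbln2 from -0.76 to 0.48 without the same libraries. In the interaction, Fbln1 ran from -0.37 without injured round 2 to 1.25 without injured round 1, Fbln2 from -0.0081 without control round 1 to 0.52 without control round 2, and Fbln5 was -1.02 without control round 2.

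The planned outer class tests, and their alternatives at the main clustering, were not run for want of control cells. At resolution 1.5 the block called 544 genes in that class (10.8%), with Fbn1 (9.4e-08), Mfap5 (8.8e-09), Emilin1 (0.00481) and Efemp2 (0.00289) higher and Fbln1 (1.9e-07) lower.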
